A study of Callithrix jacchus with 4 samples.

Results

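The genes described here encode 10 adhesion, scaffold and channel proteins of the node of Ranvier and the axon segments beside it, measured by RNA-seq in newborn marmoset brain. They were chosen by symbol, for the compartment in which their proteins act: NFASC, NRCAM and ANK3 at the node, CNTNAP1 and CNTN1 at the paranode, and CNTN2, CNTNAP2, KCNA1, KCNA2 and KCNAB2 at the juxtaparanode. All 10 had a row among the 35205 genes counted, and all 10 were among the 16956 genes tested. The set was put together with results of the same mutant against wild-type comparison already known, so the fold changes and calls below describe these genes and are not independent evidence. The animals were common marmosets (Callithrix jacchus) in 2 groups, all sampled on postnatal day 5. The first group was the FMR1 mutant, made with CRISPR/Cas9 (2 libraries), and the other was the wild-type (2 libraries). The labels give neither the mutant allele, sex or litter nor whether libraries come from different animals. The p-values therefore reflect the variation among these 4 libraries, which may be technical. FMR1 encodes FMRP, an RNA-binding protein whose loss causes fragile X syndrome. The study asked how forebrain transcripts differ between the genotypes.

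Nodes of Ranvier are the short gaps in the myelin sheath at which axons regenerate the action potential. At the node, neurofascin and NrCAM bind ankyrin-G, which anchors sodium channels. At the flanking paranode, a complex of Caspr (CNTNAP1) and contactin 1 on the axon binds the glial form of neurofascin on the myelin loops and seals the sheath to the axon. Beyond it, at the juxtaparanode, contactin 2 and Caspr2 (CNTNAP2) hold Kv1 potassium channels under the compact myelin. These domains are assembled in the forebrain as oligodendrocytes begin to wrap axons, and several of the same proteins are also used at the axon initial segment.

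The 4 libraries held between 12331639 and 13455702 counts, so depth was similar in both groups, and between 22601 and 22946 genes were detected. FMR1 itself was counted 1062 and 1603 times in mutant libraries, against 1144 and 966 times in wild-type libraries. A log2 fold change of 0.28 (SE 0.15) was not past the threshold (adjusted p = 0.445), so the RNA level does not check the genotype labels. Wild-type replicate 1 stood apart in thalamic markers: TCF7L2 was 9.01 and 8.98 CPM in mutant replicates 1 and 2, against 96.0 and 11.3 CPM in wild-type replicates 1 and 2 (CPM is a gene's counts scaled to a common library size). The labels call every library brain and do not say which part of the forebrain it holds. Values without wild-type replicate 1 are therefore given where a call depends on it.

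All 10 genes had a negative log2 fold change of mutant over wild-type, with a median of -0.40, where the median of all genes tested was 0.00. NFASC, CNTNAP1, CNTN2 and KCNAB2 fell, none rose and 6 did not pass (edgeR quasi-likelihood test, Benjamini-Hochberg adjusted p below 0.05 over all genes tested). Among all genes tested 1.57% were called lower and 0.661% higher. In 7 of the 10 both mutant libraries lay below both wild-type libraries, as did 21.8% of all genes tested. At an unadjusted p below 0.05, 7 were lower, against 7.75% of all genes. Together the 10 genes took 0.154% and 0.180% of the counts in mutant libraries, against 0.208% and 0.204% in wild-type libraries. In bulk tissue, fewer cells of a type and less RNA per cell cannot be told apart. Each gene had between 420 and 6788 counts per library and a counting CV of at most 4.9%.

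**Figure D1:**
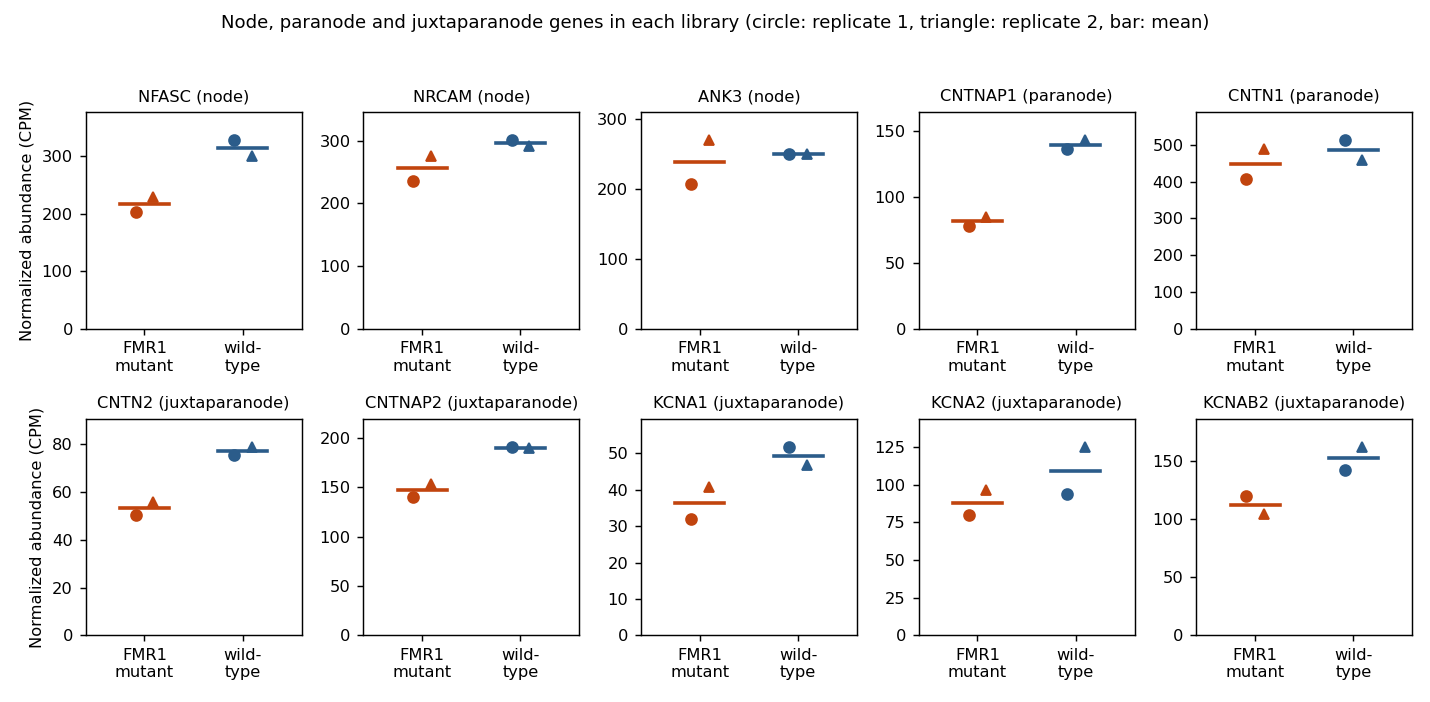
Normalized abundance (CPM, linear axis from 0) of each gene in the 2 FMR1 mutant libraries and the 2 wild-type libraries, with a bar at each group's mean. CNTNAP1 has the widest gap between the groups relative to its level, with 78.0 and 85.0 CPM in mutant libraries against 137 and 143 CPM in wild-type libraries, while the groups overlap for ANK3, CNTN1 and KCNA2.

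At the node, only NFASC of the 3 genes passed the test. NFASC encodes neurofascin, whose neuronal form clusters channels at the node and whose glial form sits on the paranodal myelin loops. It was 203 and 230 CPM in mutant replicates 1 and 2, against 328 and 301 CPM in wild-type replicates 1 and 2. The higher mutant library lay well under the lower wild-type library. NFASC fell by 0.54 on the log2 scale (SE 0.12, 95% interval -0.78 to -0.30, adjusted p = 0.00607). The call was lost without mutant replicate 1 (-0.45, adjusted p = 0.101) and without wild-type replicate 1 (-0.48, adjusted p = 0.0768). In these and all other fits without 1 library, a group has a single library that is assumed to vary like the other group's, so a call kept or lost there is a weak check. The counts are per gene, so the glial and neuronal forms of neurofascin are summed and were not told apart.

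NRCAM encodes a cell adhesion molecule that joins neurofascin at the node. It was 236 and 275 CPM in mutant libraries and 300.1 and 291 CPM in wild-type libraries, so the groups did not overlap but lay close together. The log2 fold change was -0.21 (SE 0.12, 95% interval -0.45 to 0.02, adjusted p = 0.443). ANK3 encodes ankyrin-G, the scaffold that ties nodal adhesion molecules and channels to the spectrin cytoskeleton. It was 206 and 269 CPM in mutant libraries, on both sides of the 250.1 and 249 CPM of the wild-type libraries. Its log2 fold change was -0.07 (95% interval -0.32 to 0.18, adjusted p = 0.878), and it was 0.11 without mutant replicate 1.

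At the paranode, the axonal partners Caspr and contactin 1 had unlike values. CNTNAP1, which encodes Caspr, the axonal protein required for the paranodal junction, had the lowest fold change of the 10 genes. It was 78.0 and 85.0 CPM in mutant libraries, against 137 and 143 CPM in wild-type libraries. Both mutant libraries were far below both wild-type libraries, and the libraries of each group were close to each other. CNTNAP1 fell by 41.7%, a log2 fold change of -0.78 (SE 0.12, 95% interval -1.03 to -0.53, adjusted p = 1.10e-04). Of all genes tested, 3.37% had a lower fold change. Whichever of the 4 libraries was left out it passed, with log2 fold changes of -0.84 to -0.72 and adjusted p up to 0.00326.

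CNTN1 encodes contactin 1, the membrane-anchored immunoglobulin protein that pairs with Caspr on the axon. It was 406 and 490 CPM in mutant libraries and 512 and 459 CPM in wild-type libraries, and the groups overlapped. The difference of -0.12 on the log2 scale (SE 0.12, 95% interval -0.35 to 0.12, adjusted p = 0.734) was within the spread between libraries, and it was 0.01 without mutant replicate 1. The 95% intervals of CNTNAP1 and CNTN1 do not overlap, which is not a test of their difference. The set was also chosen with results of this comparison known.

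At the juxtaparanode, all 5 genes had lower mutant means, and CNTN2 and KCNAB2 passed the test. CNTN2 encodes contactin 2, an adhesion protein made by both axons and oligodendrocytes that bridges both membranes. It was 50.4 and 55.7 CPM in mutant libraries, against 75.4 and 78.6 CPM in wild-type libraries. The groups were well apart, with little spread within either. CNTN2 fell by 0.54 on the log2 scale (SE 0.13, 95% interval -0.80 to -0.27, adjusted p = 0.0173). Its call was lost without mutant replicate 1 (adjusted p = 0.190) and without wild-type replicate 2 (adjusted p = 0.0656), and held without wild-type replicate 1.

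CNTNAP2 encodes Caspr2, the axonal partner of contactin 2 in this domain. It was 140.3 and 154 CPM in mutant libraries, against 190.4 and 189.7 CPM in wild-type libraries. The groups did not overlap, but the log2 difference of -0.37 (SE 0.12, 95% interval -0.61 to -0.14) missed the threshold (adjusted p = 0.0892).

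KCNAB2 encodes the Kv beta 2 subunit, a cytoplasmic partner of Kv1 channels that helps bring them to the axon. It was 119 and 104 CPM in mutant libraries, against 142 and 161 CPM in wild-type libraries. Both mutant libraries were lower, and this was the only one of the 10 genes with less in mutant replicate 2 than in mutant replicate 1. KCNAB2 fell by 0.44 on the log2 scale (SE 0.12, 95% interval -0.69 to -0.19, adjusted p = 0.0457). This call was close to the threshold and was lost without mutant replicate 2 (-0.35, adjusted p = 0.274), without wild-type replicate 2 (-0.35, adjusted p = 0.286), by DESeq2 (adjusted p = 0.0663) and with robust = FALSE (adjusted p = 0.0547).

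The Kv1 channel subunits themselves did not pass. KCNA1 encodes Kv1.1, a low-threshold potassium channel that limits repetitive firing. It was 32.1 and 40.7 CPM in mutant libraries, against 51.7 and 46.9 CPM in wild-type libraries, with no overlap (log2 fold change -0.44, SE 0.15, adjusted p = 0.118). KCNA2 encodes Kv1.2, which forms mixed channels with Kv1.1. It was 79.6 and 96.5 CPM in mutant libraries and 94.0 and 125 CPM in wild-type libraries, and the groups overlapped. On the log2 scale the difference was -0.31 (SE 0.14, adjusted p = 0.307), and it lay between -0.50 and -0.09 with 1 library left out.

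Over the 10 genes, mutant replicate 2 was above mutant replicate 1 in 9, with log2 differences from -0.19 to 0.38. Over all genes tested it was above in 8477 of 16956. With mutant replicate 1 left out, the 10 genes had a median log2 fold change of -0.29, and with mutant replicate 2 left out one of -0.45. Wild-type replicate 2 was above wild-type replicate 1 in 4 of the 10 genes.

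**Figure D2:**
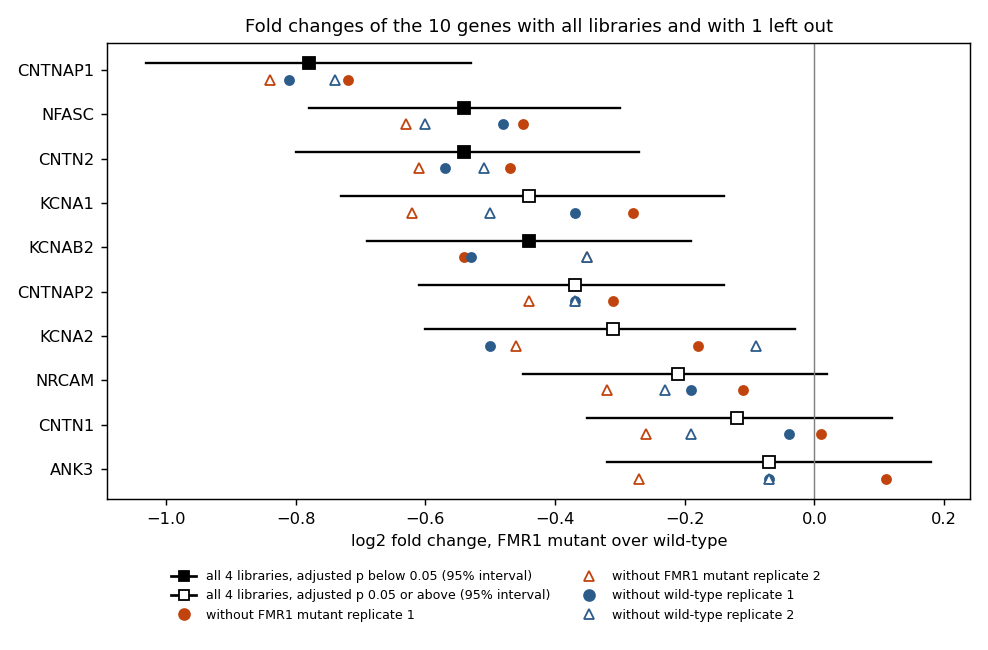
Log2 fold change of FMR1 mutant over wild-type for each gene, as a square with its 95% interval from all 4 libraries, and as smaller symbols from the fits that left out 1 library. Only CNTNAP1 passed in each fit without 1 library, and only ANK3 and CNTN1 had a positive value in any of them, both without mutant replicate 1.

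Ratios between 2 of these genes within a library do not depend on how the libraries are scaled, and 6 pairs of partners or paralogs were compared. The count of CNTNAP1 was 0.192 and 0.173 times that of CNTN1 in mutant libraries, against 0.267 and 0.311 times in wild-type libraries. The mean log2 ratio was thus lower by 0.66 in the mutant libraries (difference -0.66, mutant minus wild-type). Between the Caspr paralogs, CNTNAP1 was 0.556 and 0.553 times CNTNAP2 in mutant libraries, against 0.718 and 0.754 times in wild-type libraries (log2 difference -0.41). The mutant libraries were almost equal in this ratio and below both wild-type libraries.

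Between the contactins, CNTN2 was 0.124 and 0.114 times CNTN1 in mutant libraries, against 0.147 and 0.171 times in wild-type libraries (log2 difference -0.42). Between the L1 family adhesion genes, NFASC was 0.861 and 0.836 times NRCAM in mutant libraries, against 1.09 and 1.03 times in wild-type libraries (log2 difference -0.32). Between the juxtaparanodal partners the shift was smaller, with CNTN2 at 0.359 and 0.362 times CNTNAP2 in mutant libraries, against 0.396 and 0.414 times in wild-type libraries (log2 difference -0.17). In each of the 6 pairs the first-named gene had the lower log2 fold change, and CNTNAP1, CNTN1, CNTN2 and CNTNAP2 recur between pairs. The direction of the shifts thus follows from those fold changes, and the pairs are not separate observations. In 5 of the 6 pairs both mutant libraries lay below both wild-type libraries. With 2 libraries a group the exact two-sided permutation test cannot go below p = 0.333, which these 5 reached (adjusted p = 0.4 over the 6 pairs). The pair of channel subunits overlapped: KCNA1 was 0.403 and 0.422 times KCNA2 in mutant libraries and 0.550 and 0.375 times in wild-type libraries (log2 difference -0.14, exact p = 1). Ratios of counts also carry the lengths of the transcripts, so only their shift between groups is read.

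**Figure D3:**
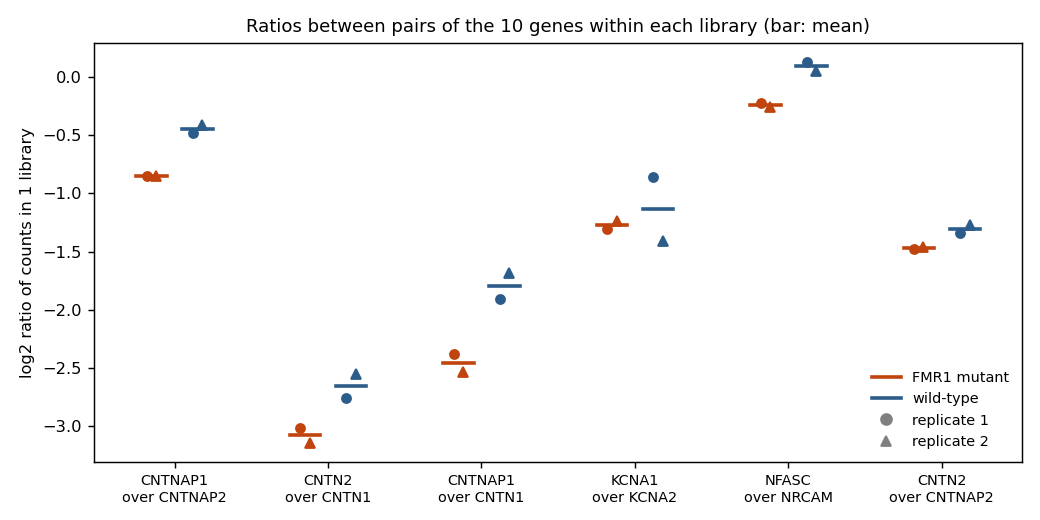
Log2 ratio of the counts of 2 genes within each library, with the 2 FMR1 mutant libraries left of the 2 wild-type libraries and a bar at each mean. The mutant libraries lie below the wild-type libraries in 5 pairs, by 0.66 for CNTNAP1 over CNTN1, and overlap them for KCNA1 over KCNA2.

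Other genes of the nodal region were read from the same fit in 6 lists that hold 52 further genes. Of these, 5 fell, none rose and 47 did not pass, with a median log2 fold change of -0.10. Among all genes tested, 1.57% were called lower. UGT8, OPALIN, LGI3 and MAG were among the 5. UGT8, OPALIN and MAG are also markers of myelinating oligodendrocytes.

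In the list of nodal sodium channel genes, SCN8A, the main sodium channel of mature nodes, was 133 and 152 CPM in mutant libraries, against 172 and 185 CPM in wild-type libraries. The groups did not overlap, but the log2 fold change of -0.32 (SE 0.12) did not pass (adjusted p = 0.178). A further 5 genes of this list lay between -0.24 and 0.10 on the log2 scale, and none of them passed by edgeR.

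Among 8 genes of nodal potassium channels and the spectrin scaffold, none passed by edgeR and none had an unadjusted p below 0.05. The smallest p-values were those of SPTBN1, a spectrin under the axon membrane (-0.14, adjusted p = 0.642), and KCNK10, a background potassium channel of the TREK family (0.24, adjusted p = 0.658). Among 9 paranodal partners, 2 fell. UGT8 makes galactocerebroside, a myelin lipid that mouse paranodes need, and was 30.6 and 29.7 CPM in mutant libraries, against 72.4 and 65.9 CPM in wild-type libraries (-1.20, SE 0.14, adjusted p = 4.61e-07). OPALIN encodes an oligodendrocyte membrane protein of the paranodal loops (-1.52, SE 0.23, adjusted p = 5.30e-05).

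Among 11 juxtaparanodal partners, 1 fell. LGI3 encodes a secreted protein found at juxtaparanodes in mice, and was 28.9 and 25.5 CPM in mutant libraries, against 49.9 and 42.9 CPM in wild-type libraries (-0.77, SE 0.15, adjusted p = 0.00198). The groups were apart, and the call was lost without mutant replicate 2 (adjusted p = 0.0533). Its relative LGI1, a secreted ligand of ADAM22, did not pass (0.21, adjusted p = 0.524).

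Among 9 genes of the perinodal matrix, none passed by edgeR, and 2 were lower at an unadjusted p below 0.05. These were PTPRZ1, a receptor phosphatase that binds contactin 1 (-0.34, adjusted p = 0.126), and TNR, a matrix glycoprotein around nodes (-0.32, adjusted p = 0.225). Among 8 genes of internodal adhesion, 1 fell. MAG, which holds myelin to the axon, was 43.8 and 42.6 CPM in mutant libraries, against 124 and 127 CPM in wild-type libraries (-1.54, SE 0.13, adjusted p = 2.95e-10). NECTIN3, an adhesion molecule, did not pass (0.15, adjusted p = 0.678).

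Of 9 paralogs of the contactins, Caspr proteins and L1 family, 8 were tested and none passed by edgeR. CNTN3 (-0.33, adjusted p = 0.351), an immunoglobulin adhesion protein, was lower at an unadjusted p below 0.05, and CNTN4 came next (-0.33, adjusted p = 0.392). By DESeq2, too, no gene of the matrix list, the potassium channel and spectrin list or the paralog list passed.

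**Figure D4:**
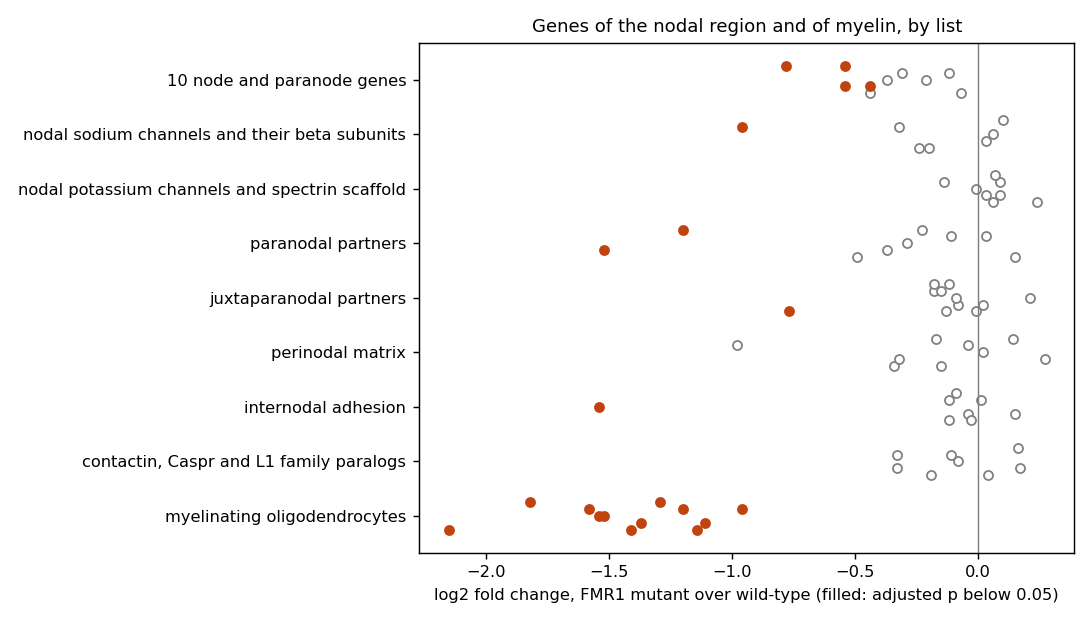
Log2 fold change of FMR1 mutant over wild-type for each tested gene of the 10 node and paranode genes, the 6 lists of other nodal genes, the paralogs and the myelin markers, 1 point per gene, filled where the adjusted p is below 0.05. The 12 myelin markers lie between -2.15 and -0.96, below CNTNAP1 at -0.78, and most other nodal genes lie around 0.

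Markers of myelinating oligodendrocytes were lower in the same libraries. All 12 on the list fell, and their summed level was 1404 and 1352 CPM in mutant libraries, against 3681 and 3603 CPM in wild-type libraries. MBP, which compacts the sheath, had a log2 fold change of -1.58 (SE 0.11), and MOBP, another structural protein of myelin, one of -1.37 (SE 0.12). Among 9 general neuron markers the summed level was 7625 and 7697 CPM in mutant libraries, against 7927 and 7430 CPM in wild-type libraries, and 3 fell. These were the neurofilament genes NEFL (-0.49), NEFM (-0.48) and NEFH (-0.72), which encode structural proteins of large axons. In all, 7 of the 9 log2 fold changes were below 0 and 2 above. STMN2, the largest part of the sum, was 3059 and 2902 CPM in mutant libraries, against 2560 and 2232 CPM in wild-type libraries. Its log2 fold change of 0.31 did not pass (adjusted p = 0.141). Of 6 excitatory neuron markers, 5 had a log2 fold change above 0, as did 8358 of the 16956 genes tested. Their sums were 2117 and 2100 CPM in mutant libraries, against 1782 and 1993 CPM in wild-type libraries. SLC17A7, the largest part of these sums, overlapped between the groups (log2 fold change 0.04). Among the 6, NEUROD6, a transcription factor of cortical excitatory neurons, rose (0.41, adjusted p = 0.0469), and 2 were higher by DESeq2. Inhibitory neuron markers summed to 571 and 553 CPM in mutant libraries, against 605 and 645 CPM in wild-type libraries. Of these 6, GAD2, an enzyme of GABA synthesis (-0.46, adjusted p = 0.0352), and PVALB, a calcium-binding protein of an interneuron class (-1.53, adjusted p = 0.00974), fell, and 1 was lower by DESeq2, PVALB not (adjusted p = 0.0937). Each of these 6 neuron marker calls was lost without at least 1 library. NEFL, NEFM and NEFH lost theirs without wild-type replicate 1 (adjusted p = 0.335, 0.211 and 0.165) and without 1 or both mutant libraries, NEUROD6 without any 1 of the 4 (adjusted p between 0.104 and 0.267), GAD2 without any but wild-type replicate 1 (up to 0.285) and PVALB without mutant replicate 2 (0.161). These 6 and all other marker genes named in the text, apart from the myelin markers, were named after their values were seen. Among 7 markers of oligodendrocyte precursors 2 fell and the sum was 481 and 496 CPM in mutant libraries, against 608 and 647 CPM in wild-type libraries. The 2 were SOX10 (-0.56, adjusted p = 0.0161) and GPR17 (-0.50, adjusted p = 0.0162). All 7 log2 fold changes were below 0, but PDGFRA (-0.44, adjusted p = 0.0554), CSPG4 (-0.13, adjusted p = 0.862) and OLIG1 (-0.13, adjusted p = 0.706) did not pass. Astrocyte markers summed to 3086 and 3424 CPM in mutant libraries, against 4387 and 4236 CPM in wild-type libraries, and 1 of 7 fell. This was SLC1A2 (-0.61, adjusted p = 0.000968), which with GFAP (-0.39, adjusted p = 0.0654) made the largest parts of these sums. SLC1A3 (-0.14), AQP4 (-0.10) and AGT (-0.30) overlapped between the groups, though all 7 log2 fold changes were below 0. Microglial markers summed to 81.3 and 54.9 CPM in mutant libraries, against 104 and 106 CPM in wild-type libraries, and 2 of 7 fell. These were CSF1R (-0.84, adjusted p = 0.00841) and CX3CR1 (-0.71, adjusted p = 0.019), and only 1 marker of this list was lower by DESeq2. All 7 log2 fold changes were below 0, but C1QA and C1QB overlapped between the groups. No endothelial, striatal or hippocampal marker passed by edgeR or DESeq2, and at an unadjusted p below 0.05 FLT1 (-0.35), PPP1R1B (-0.32) and WFS1 (-0.55) were lower and MEIS2 (0.27) higher. Summed thalamic markers were 93.0 and 96.5 CPM in mutant libraries, against 275 and 89.7 CPM in wild-type replicates 1 and 2. The part of any of these marker lists in the fold changes of the nodal genes was not tested. Without wild-type replicate 1, CNTNAP1, CNTN2 and KCNAB2 passed and the median of the 10 genes was -0.42. Of 6 hindbrain and spinal cord markers, HOXB3, HOXB5 and HOXA5 were at 0 in all libraries.

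The genes whose CPM pattern over the 4 libraries lay nearest to a called gene were taken from 10252 tested genes with a symbol and a mean of at least 10 CPM, by the Euclidean distance of centred log2 CPM. For CNTNAP1 they were YPEL2 (distance 0.061), TMEM132D (0.091) and COL5A3 (0.12). For NFASC they were KCNH5, an EAG potassium channel (0.033), COL25A1 (0.037) and GRK3 (0.047). For CNTN2 they were USP54 (0.035), NR4A3 (0.035) and GPR17 (0.045), and for KCNAB2 they were ETS2 (0.036), RGN (0.055) and CAMK2N1 (0.058). With only 4 libraries many genes share such a pattern. COL5A3, COL25A1, USP54, NR4A3, ETS2, RGN and CAMK2N1 did not pass the test (adjusted p between 0.057 and 0.428), and the other nearest genes named did. GPR17, a receptor that marks premyelinating oligodendrocytes, was 115 and 129 CPM in mutant libraries, against 169 and 176 CPM in wild-type libraries. It was picked for a pattern like that of CNTN2, so its lower level is not a separate observation.

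In RefSeq's gene table for the assembly calJac240_pri, which may not be the build the counts rest on, CNTNAP1 overlaps CCR10 and KCNAB2 overlaps NPHP4. The library kit keeps strand, but how strand was treated in the counting is not known here, so reads of overlapping genes may be shared. CCR10 was 8.70 and 7.12 CPM in mutant libraries and 7.24 and 8.06 CPM in wild-type libraries (log2 fold change 0.05, adjusted p = 0.967). NPHP4 was 28.3 and 28.0 CPM in mutant libraries and 26.6 and 29.9 CPM in wild-type libraries (log2 fold change 0.00, adjusted p = 0.997). Neither CCR10 nor NPHP4 passed the test. KCNAB2 also overlaps LOC128928314, which had 24 counts over all libraries and was not tested. NFASC, NRCAM, CNTN1 and CNTNAP2 overlap pseudogenes or noncoding RNA genes that had no row or at most 4 counts over all libraries.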

How the data were processed

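Poly(A) RNA of brain tissue was sequenced with a directional kit in 2 FMR1 mutant and 2 wild-type libraries, per the labels' protocols. The table the authors deposited holds raw counts of each gene. Trimmomatic 0.38 and STAR 2.7.10a appear in the submitters' processing notes. Which counter, strand setting, genome build and annotation were used is not given in these sources.

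Genes passing filterByExpr (minimum count 10) were scaled by TMM and compared in R 4.3.3 with edgeR 4.0.16 (quasi-likelihood test, robust = TRUE, Benjamini-Hochberg over all 16956 genes, adjusted p 0.05). Every adjusted p printed without another tool's name is from this test. Fold changes are mutant over wild-type, the SE is the log2 fold change divided by the square root of F, and intervals are at 95%. Residual degrees of freedom were 2, with 31.6 prior degrees of freedom in the median gene. The test was run beforehand on counts simulated with the average spread fitted to these 4 libraries. That run held no outlying library, so it does not show how the test handles one. Replicates differed by more than sampling noise (chi-square per degree of freedom 7.42 for mutant and 7.79 for wild-type libraries). Alternatives were RLE scaling, DESeq2 1.42.0 on all rows, no filter, robust = FALSE, the replicate number as a block, and each library left out.

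The 10 genes and all lists were chosen with earlier results of these data known. Of each list, up to 4 genes past the threshold were named by smallest p, or the 2 with the smallest p where fewer than 2 passed. Some genes taken by this rule are not reported here, though they stay in every count and test. Counting intervals and CVs cover counting error only. No transcript lengths were used, so levels are not compared between genes.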

Additional observations from a re-analysis of the deposited data

How the results depend on the processing

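CNTNAP1, UGT8, OPALIN, MAG, MBP and MOBP kept their direction and call under all 9 alternatives. For the 10 nodal genes, the others taken by rule and 6 neuron markers, 45 genes in all, 366 of 405 values under alternatives had the same direction and call. The rest were 34 calls lost, 3 gained and 2 changes of direction. A gene called in neither fit counts as the same, so this share overstates how stable the calls were. The number of the 10 nodal genes called lower was 4 with all libraries, between 2 and 3 with 1 library left out (2 without mutant replicate 1 and 2 without wild-type replicate 2), and 3 or 4 otherwise. With 1 library left out, the log2 fold change of ANK3 lay between -0.27 and 0.11 and that of CNTN1 between -0.26 and 0.01, both positive only without mutant replicate 1 and called in no fit. The log2 ratio of KCNA1 over KCNA2 differed between mutant and wild-type by -0.41 to 0.14, positive only without wild-type replicate 1. The cause was not tested. With 1 library left out, 1 group has a single library and takes its spread from the other group. Over all genes, 266 were lower and 112 higher with all libraries. Lower genes were 164 by DESeq2, 439 with no filter on low counts, and between 118 and 389 with 1 library left out. Higher genes were 194 with no filter and between 45 and 173 with 1 library left out. With the replicate number as a block, 340 genes were lower and 153 higher, and 4 of the 10 genes and 5 related genes were called as before. Same-numbered libraries did not deviate together (r = -0.01 across 10939 genes, which are not independent replicates). An effect limited to some genes, or one aligned with genotype, would not show in this value. The 10 genes had at least 420 counts per library, and whether depth limited their calls was not tested. KCNA1, with the fewest counts of the 10, had the widest SE (0.15). Having only 2 libraries per group limits every interval.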
